A study of Mus musculus with 12 samples.

Results

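The 7 genes described here encode the kinase module of the Mediator complex and its vertebrate paralogs, and they are *Med13*, *Med13l*, *Med12*, *Med12l*, *Cdk8*, *Cdk19* and *Ccnc*. They were taken by name, by matching the Ensembl identifiers of the deposited table to mouse gene symbols, and all 7 of 7 were found among the 16346 genes of the table. All 7 also passed the filter for testing, a mean of at least 10 normalized counts over the libraries, as 12366 genes did. Averaged over genotypes and sugars, *Cdk8* and *Med13l* were lower after sugar feeding than after fasting. For *Med13l* no change was called within the controls alone. *Med12l* was higher in the libraries labelled MED13-LKO than in the controls, and the RNA of *Med13*, the gene targeted in the knockout, was not lower in those libraries.

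Mediator carries signals from DNA-bound transcription factors to RNA polymerase II, and its kinase module is a part that binds the core complex reversibly. Within the module, MED13 is the subunit that links the kinase to core Mediator, MED12 activates the kinase, CDK8 is the catalytic subunit and cyclin C, the product of *Ccnc*, is its partner. In vertebrates MED13L, MED12L and CDK19 are paralogs that can take the places of MED13, MED12 and CDK8, whereas cyclin C has no paralog in the module. In liver the module has been studied as a regulator of lipogenic and gluconeogenic transcription in the change from fasting to feeding.

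Liver RNA was sequenced from 12 mice aged 12 weeks, 6 control mice carrying floxed *Med13* alleles (Med13 fl/fl) and 6 MED13-LKO mice, in which the same alleles are recombined by Cre under the *Albumin* promoter. The study describes this knockout as hepatocyte-selective, so whole liver also holds cells that are not targeted. Both genotypes carried the floxed alleles on a background given as C57BL6J, and nothing in the labels says that the controls carried Cre. Within each genotype, 2 mice were fasted for 16 h, 2 were refed for 4 h on chow with 30% sucrose in the drinking water and 2 were refed for 4 h with 30% fructose. The fed groups therefore received chow as well as a sugar, and fed mice given plain water were not analysed here. The values are normalized counts per gene that the authors made with Kallisto and DESeq2, and fold changes and adjusted p-values come from limma on log2(normalized count + 1), fitted over all 12 libraries with Benjamini-Hochberg adjustment over the 12366 genes and called at an adjusted p-value under 0.05.

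The normalized counts summed to 21060000 to 24150000 in control libraries and to 17310000 to 18740000 in the libraries labelled MED13-LKO, and these sums are not read totals, so the depth behind each value is unknown. The 8 hepatocyte markers were detected in every library, and 5 of 8 were called lower in the libraries labelled MED13-LKO. Their summed level was 2584491 to 3331536 in controls and 1992809 to 2406009 in the libraries labelled MED13-LKO. Most of that sum was *Alb* alone, at 1780007 to 2411616 in controls and 1376902 to 1683239 in the libraries labelled MED13-LKO. The summed level of 8 Kupffer cell markers was 3978 to 5610 against 5129 to 6808, with 2 of 8 called higher, and that of 8 sinusoidal endothelial markers was 4768 to 5727 against 5569 to 7457, with 4 of 8 called higher. Of the stellate cell markers 3 of 8 were called lower (6873 to 7977 against 6345 to 7181), of 4 cholangiocyte markers tested 1 was called lower (669 to 878 against 534 to 851), of 2 lymphocyte markers tested 1 was called higher (188 to 275 against 237 to 363), and of 5 erythroid markers tested 4 were called lower (8908 to 14906 against 5735 to 11173). These calls are from the comparison averaged over the diets, where 25.3% of all genes were called and 12.1% were called higher. In whole liver, fewer cells of a type and less RNA per cell cannot be told apart. *Nnt*, a mitochondrial transhydrogenase gene of which the C57BL/6J line carries a deletion, stood at 529 to 1004 in controls and at 2617 to 3687 in the libraries labelled MED13-LKO, a log2 fold change of 2.12 (adjusted p = 5.69e-06), so a difference in strain background and the difference in genotype cannot be told apart. The part of these differences in the results below was not tested.

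The places of the 7 genes are given on GRCm38, the assembly of the mm10 build named in the submitters' processing notes, from GENCODE M21. *Med13* lies on the minus strand of chromosome 11 from 86267033 to 86357602, *Med13l* on chromosome 5 from 118560679 to 118765438, *Med12* on chromosome X from 101274030 to 101297465 and *Med12l* on chromosome 3 from 59005825 to 59318682. *Cdk8* lies on chromosome 5 from 146231230 to 146302874, *Cdk19* on chromosome 10 from 40339564 to 40483818 and *Ccnc* on chromosome 4 from 21727701 to 21759922. No 31-base subsequence was shared between *Med13* and *Med13l*, between *Med12* and *Med12l* or between *Cdk8* and *Cdk19*, so reads of that length could separate each pair. Between 0.219% (*Med13l*) and 16.7% (*Med12l*) of a member's 31-base subsequences occurred in some other gene. For *Med12l* most of those were shared with *Igsf10*, a gene on the opposite strand that overlaps its end, and for *Med13* most were shared with the antisense gene *Brip1os*. The strand setting of the counting is not given in the sources used here, so reads of *Med12l* and of the overlapping genes cannot be told apart with certainty, nor can those of *Ccnc* and its antisense neighbour *Tstd3*.

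The qPCR primers that the study lists for *Med13* are shown because they mark where on the transcript the targeted gene was assayed, on the strand of the *Med13* transcript that each matches, and they were found in 1 gene only. The annotated coding transcript of *Med13* has 30 exons and 10546 nucleotides. The primer listed as forward matches the antisense strand in exon 23, at chr11:86283370-86283390, and the primer listed as reverse matches the sense strand in exon 22, at chr11:86283819-86283839, so that they bound a product of 143 nucleotides from position 5236 to position 5378 of the transcript.
listed as forward: cttcaccggagccagaataaa
listed as reverse: ggagaccacttccaacatcaa
The exons flanked by loxP sites are not given in the sources used here. A gene-level value sums reads over all exons, so it can stay high in a transcript that has lost a few exons, and it does not measure the deletion itself.

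The stretch upstream of the start is shown for *Cdk8* and *Med13l*, since both were called lower in the same comparison. That comparison is fed against fasted, averaged over genotypes and sugars. The sequences are from the RefSeq promoter table on GRCm38.p6, plus strand, reading up to the first base that GENCODE M21 places in the gene, and capitals mark matches to the motifs searched. The *Cdk8* stretch is chr5:146231000-146231229 and has 67.0% G and C, and the *Med13l* stretch is chr5:118560469-118560678 and has 83.3%.
Cdk8: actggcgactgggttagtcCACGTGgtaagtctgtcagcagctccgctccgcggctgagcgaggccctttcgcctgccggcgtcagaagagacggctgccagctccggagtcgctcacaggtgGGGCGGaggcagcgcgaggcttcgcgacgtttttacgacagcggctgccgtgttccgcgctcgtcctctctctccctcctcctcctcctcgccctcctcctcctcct
Med13l: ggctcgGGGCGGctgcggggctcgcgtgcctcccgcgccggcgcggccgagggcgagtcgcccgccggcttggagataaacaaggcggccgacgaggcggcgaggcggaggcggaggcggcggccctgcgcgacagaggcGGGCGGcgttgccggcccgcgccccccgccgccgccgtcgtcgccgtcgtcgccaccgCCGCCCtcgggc
The motifs searched on both strands of the 250 bases before the RefSeq start were the E-box CACGTG, the forkhead site GTAAACA, the cyclic AMP response element TGACGTCA, the CCAAT box CCAAT, the GC box GGGCGG and the ETS site CCGGAAG. *Cdk8* held an E-box 231 bases and a GC box 127 bases before the start, and *Med13l* held GC boxes at 244, 110 and 52 bases before it, the last of them on the minus strand. An E-box of these letters was present in 6.05% of the 27025 promoters of the table and in 1 of the 6 members with an entry, *Cdk8*. The GC box was present in 32.9% of all promoters and in 6 of those 6 members, and the CCAAT box in 34.5% of promoters and in 1 member, *Ccnc*. The forkhead, cyclic AMP response and ETS letters, present in 3.09%, 1.62% and 7.05% of promoters, were found in 0 of the 6 members. These matches describe the letters of the windows and show no binding.

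Per kilobase of the longest coding transcript, the mean normalized count over the 12 libraries was 271 for *Cdk8*, 122 for *Ccnc*, 72.3 for *Med12*, 70.4 for *Med13*, 28.3 for *Med13l*, 25.4 for *Cdk19* and 3.11 for *Med12l*. The RNA of the catalytic subunit was thus 2.22 times that of its cyclin partner on this scale, and the 2 stood in this order in 12 of 12 libraries. *Med12* and *Med13*, the large structural subunits, could not be ranked, since *Med12* was the higher in 7 of 12 libraries and their ranges overlapped. *Med13l* and *Cdk19* could not be ranked either, with *Med13l* the higher in 6 of 12 libraries. Each of the other neighbours in the order kept its place in 12 of 12 libraries, and each paralog was below the subunit whose place it can take. The order was unchanged with the median length of the coding transcripts, which raised the level of *Cdk8* to 447 and of *Ccnc* to 177 per kilobase.

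**Figure D1:**
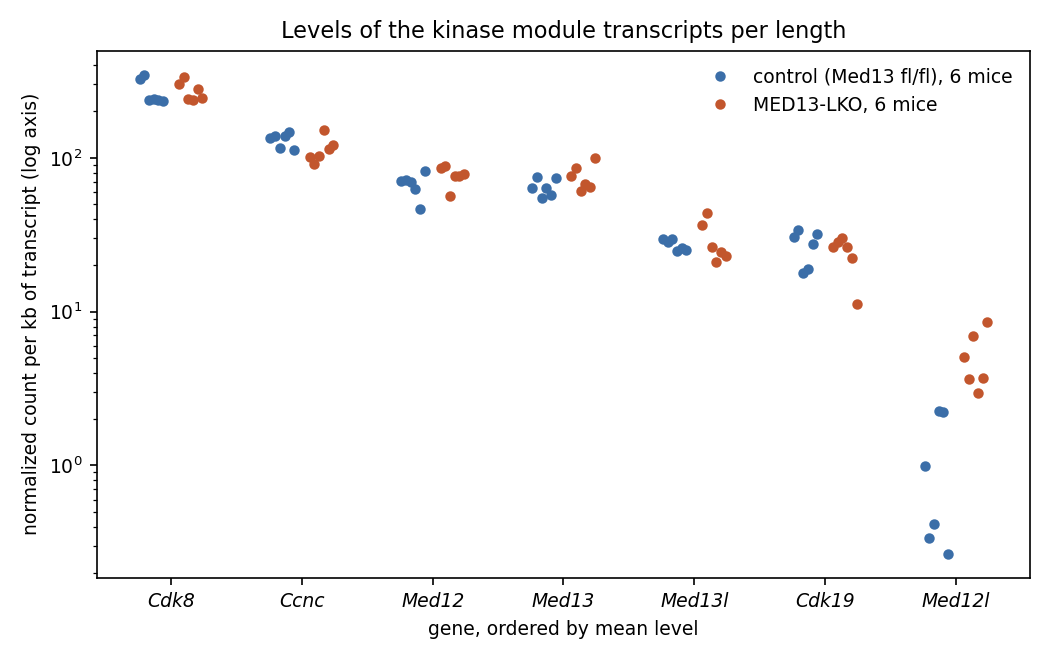
Normalized count per kilobase of the longest coding transcript, on a log axis, for the 7 genes ordered by their mean level, with 1 point per library in blue for the 6 control mice and in orange for the 6 MED13-LKO mice. *Cdk8* lay highest at a mean of 271 and *Med12l* lowest at 3.11, and only for *Med12l* did the points of the genotypes not overlap.

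The comparison of genotypes asks how removal of MED13 from hepatocytes left the RNA of the module. The targeted gene comes first, with the limit that its value does not measure the deletion. *Med13* stood at 674 and 796 normalized counts in the 2 fasted control mice, at 578 and 673 with sucrose and at 607 and 778 with fructose, and at 808 and 899, 646 and 717, and 681 and 1055 in the libraries labelled MED13-LKO in the same order of diets. The ranges of the genotypes overlapped (578 to 796 against 646 to 1055), and the mean was the higher in the libraries labelled MED13-LKO in all 3 diets. The log2 fold change of *Med13* as an average of the 3 diets was 0.22 (SE 0.115, 95% interval -0.04 to 0.47, adjusted p = 0.202). It ran from 0.11 to 0.32 over the 12 fits that left out a mouse. The 0.32 was without the first fructose mouse labelled MED13-LKO, which leaves 1 library in that group, at 1055. A loss of signal of *Med13* was thus not seen, and every direction given here is for libraries as labelled.

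The nearest tested genes on either side of *Med13* were looked at in the same comparison, averaged over the diets. There 25.3% of all genes tested were called and 12.1% were called higher. Of 3 genes on each side, *Brip1*, a DNA helicase gene 65840 bases away, was higher in the libraries labelled MED13-LKO (log2 fold change 1.01, SE 0.189, adjusted p = 0.0039), as was *Tubd1*, which encodes delta tubulin and lies 187389 bases away on the other side (0.59, SE 0.142, adjusted p = 0.0131). The other 4 were not called, among them *Ints2*, the closest at 9458 bases (0.12, adjusted p = 0.336), *Tbx2* (-0.16, 0.497), *Rnft1* (-0.24, 0.0855) and *Rps6kb1* (-0.06, 0.438).

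*Med13l*, the paralog of *Med13*, stood at 276 and 264 normalized counts in fasted controls, at 275 and 232 with sucrose and at 240 and 234 with fructose. The libraries labelled MED13-LKO stood at 342 and 409, 244 and 195, and 226 and 215. Both fasted libraries labelled MED13-LKO were above every other library, while with fructose both were below both controls. No genotype difference was called for it in any diet (fasted 0.47, SE 0.149, adjusted p = 0.0808, unadjusted p = 0.0105), nor averaged over the diets (0.05, SE 0.0859, adjusted p = 0.697).

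*Med12* stood at 491 and 501 normalized counts in fasted controls, at 487 and 438 with sucrose and at 320 and 572 with fructose. The libraries labelled MED13-LKO stood at 595 and 618, 395 and 530, and 528 and 547. When fasted, both libraries labelled MED13-LKO were above both controls (log2 fold change 0.29, adjusted p = 0.467), whereas the fructose controls were the furthest apart of any pair of this gene and enclosed both fructose libraries labelled MED13-LKO. The averaged log2 fold change was 0.20 (SE 0.132, adjusted p = 0.30). It ran from 0.06 to 0.34 over the 12 fits that left out a mouse. The 0.34 was without the second fructose control, which leaves 1 library in that group.

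*Med12l*, the paralog of *Med12* and by far the lowest member, stood at 11.0 and 3.69 normalized counts in fasted controls, at 4.60 and 24.9 with sucrose and at 24.4 and 2.93 with fructose. Under the label MED13-LKO it stood at 55.6 and 39.9 when fasted, at 75.9 and 32.8 with sucrose and at 41.0 and 94.1 with fructose. All 6 libraries labelled MED13-LKO were above all 6 controls, from 32.8 to 94.1 against 2.93 to 24.9, and ranges that do not overlap in this comparison of 6 against 6 were found for 8.85% of all genes tested. Averaged over the diets *Med12l* was higher by 2.48 on the log2 scale (SE 0.559, 95% interval 1.23 to 3.72, adjusted p = 0.00973). It was the only 1 of the 7 members called in the averaged comparison, where 25.3% of all genes were called and 12.1% were called higher. Its mean was 11.9 in controls and 56.5 in the libraries labelled MED13-LKO, so the gene passed the filter in the controls alone as well.

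The call for *Med12l* held in 6 of 6 other settings and in 12 of 12 fits that left out a mouse, with log2 fold changes of 1.66 to 2.64 and of 2.03 to 2.92. Within a diet its fold changes were 2.68 (fasted, adjusted p = 0.115), 2.08 (sucrose, 0.252) and 2.66 (fructose, 0.132), none of them called. Of 5 genes in the table that overlap *Med12l* on the opposite strand, 4 passed the filter, and none of the 4 was called. *P2ry14*, a receptor for UDP-glucose, had a log2 fold change of 1.68 (adjusted p = 0.125), and *Igsf10*, whose end overlaps that of *Med12l*, had 1.21 (adjusted p = 0.387). For *P2ry13* and *P2ry12*, receptors for ADP, the values were 0.25 (0.193) and 0.33 (0.663). Their part in the *Med12l* value was not tested.

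The catalytic subunit *Cdk8* stood at 961 and 1031 normalized counts in fasted controls, at 704 and 714 with sucrose and at 701 and 694 with fructose. Under the label MED13-LKO it stood at 900 and 992, 714 and 703, and 838 and 726. The genotypes overlapped when fasted and with sucrose, and with fructose both libraries labelled MED13-LKO were above both controls (log2 fold change 0.16, SE 0.0945, adjusted p = 0.346). The averaged log2 fold change of *Cdk8* was 0.03 with a 95% interval of -0.09 to 0.15 (adjusted p = 0.753). *Cdk8* was also the steadiest member: its SD within groups was 0.0784 on the log2 scale, smaller than that of all but 10% of genes, against a median of 0.179 over all genes and 1.19 for *Med12l*.

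*Cdk19*, the paralog kinase, stood at 177 and 198 normalized counts in fasted controls, at 103 and 110 with sucrose and at 160 and 185 with fructose. Under the label MED13-LKO the libraries stood at 153 and 164, 174 and 154, and 130 and 65.5. With sucrose both libraries labelled MED13-LKO were above both controls, and with fructose both were below them. The log2 fold changes were 0.61 with sucrose (SE 0.264, adjusted p = 0.217) and -0.89 with fructose (SE 0.264, adjusted p = 0.0711), and averaged over the diets -0.17 (SE 0.152, adjusted p = 0.45). Without the first fructose mouse labelled MED13-LKO, which leaves 1 library at 65.5, the differences were -1.38 with fructose and -0.34 averaged. Over the fits that left out a mouse they ran from -1.38 to -0.40 and from -0.34 to -0.01.

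*Ccnc* stood at 471 and 481 normalized counts in fasted controls, at 405 and 480 with sucrose and at 509 and 393 with fructose, against 355 and 315, 360 and 532, and 397 and 419 in the libraries labelled MED13-LKO. When fasted, both libraries labelled MED13-LKO were below both controls (log2 fold change -0.51, SE 0.187, adjusted p = 0.121, unadjusted p = 0.0216), and with either sugar the genotypes overlapped. The averaged difference was -0.22 (SE 0.108, adjusted p = 0.173). It ran from -0.31 to -0.12 over the 12 fits that left out a mouse. The -0.31 was without the second sucrose mouse labelled MED13-LKO.

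Within a single diet limma called 0 of the 7 members between genotypes, where 8.98% of all genes were called in the fasted state, 6.03% with sucrose and 7.69% with fructose. At an unadjusted p-value under 0.05 there were 3 members in the fasted state (*Med13l*, *Med12l* and *Ccnc*), 1 with sucrose (*Cdk19*) and 2 with fructose (*Cdk19* and *Med12l*), where 25.4%, 21.4% and 23.2% of all genes stood under that limit. With fructose, leaving out a control leaves 1 library in that group. It gave log2 fold changes of 4.01 for *Med12l* (without the first) and 0.74 for *Med12* (without the second). Over the 4 fits that left out a fructose mouse they ran from 1.32 to 4.01 and from -0.09 to 0.74.

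**Figure D2:**
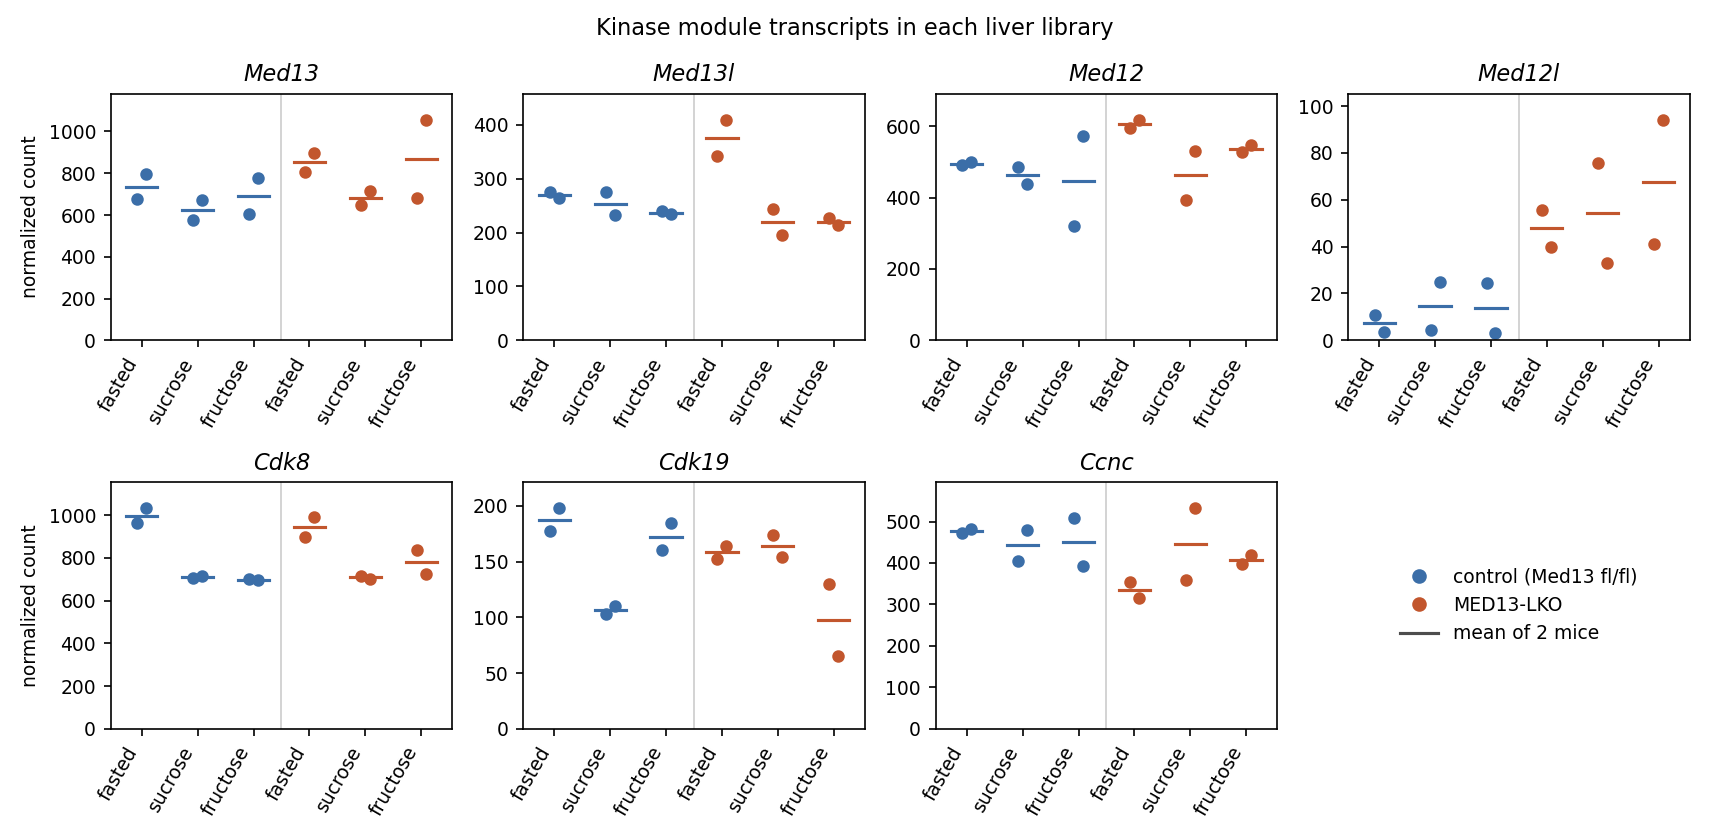
Normalized counts of the 7 genes in every library, 1 panel per gene on a linear axis from 0, with fasted, sucrose and fructose groups of control mice in blue and of MED13-LKO mice in orange. Points are single mice and lines are means of 2 mice. *Med12l* was higher in all 6 libraries labelled MED13-LKO, *Cdk8* was higher in the 4 fasted libraries than in the 8 fed ones, and *Med13* overlapped between genotypes.

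Because each paralog can stand in for its partner, the log2 ratio of paralog to partner was compared between genotypes with an exact two-sided permutation test within diets, for which 216 arrangements allow no p-value below 0.00926. The log2 ratio of *Med12l* to *Med12* rose from a mean of -5.58 (SD 1.46, n = 6) in controls to -3.31 (SD 0.70, n = 6) in the libraries labelled MED13-LKO, a difference of 2.27 (exact permutation p = 0.00926, the smallest possible, and 0.0278 after adjustment over the 3 pairs). Within each diet both libraries labelled MED13-LKO were above both controls, while over all diets the ranges overlapped (-7.19 to -3.66 in controls, -3.98 to -2.36 in the libraries labelled MED13-LKO). With fructose the separation was narrow, at -3.655 in the first mouse labelled MED13-LKO and -3.662 in the first control. Without the second fructose mouse labelled MED13-LKO the difference was 2.09 (exact permutation p = 0.0556). The ratio of *Med13l* to *Med13* differed by -0.16 (exact permutation p = 0.417, adjusted 0.444) and that of *Cdk19* to *Cdk8* by -0.20 (exact permutation p = 0.444, adjusted 0.444), both with overlapping ranges. The difference in the pair of *Med12l* and *Med12* uses the *Med12l* values already compared above, so it is not a second finding. For the other pairs no difference was detected.

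The comparison of fed with fasted mice asks whether the RNA of the module changed when the livers went from fasting to sugar feeding, and within a genotype the sugars share the same fasted mice. Over both genotypes and both sugars, limma called 2 of the 7 members, *Cdk8* and *Med13l*, both lower after feeding, where 21.8% of all genes were called and 11.0% were called lower. The values of each gene by library are those given above.

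*Cdk8* was lower in all 8 fed libraries, at 694 to 838 normalized counts with a median of 709, than in all 4 fasted libraries, at 900 to 1031 with a median of 977. Such ranges without overlap between the 8 and the 4 were found for 8.8% of genes. Averaged over genotypes and sugars, *Cdk8* fell by 0.42 on the log2 scale (SE 0.0579, adjusted p = 0.000916), and the call held in 6 of 6 other settings and in 12 of 12 fits without a mouse. In the control mice it fell with sucrose (-0.49, SE 0.0945, adjusted p = 0.0129) and with fructose (-0.51, SE 0.0945, adjusted p = 0.0156). Among the mice labelled MED13-LKO it fell with sucrose (-0.41, adjusted p = 0.0327) and stood at -0.28 with fructose, which was not called (95% interval -0.49 to -0.07, adjusted p = 0.113). These calls within a diet and genotype rest on 2 mice against 2 and are less secure than the averaged one. The sucrose call in controls was lost without the second fasted mouse (adjusted p = 0.104) and without either sucrose mouse (0.0776 and 0.0563), and the fructose call was lost without either fasted mouse (0.0506 and 0.121) and without the first fructose mouse (0.06). The sucrose call in the libraries labelled MED13-LKO was lost without each of its 4 mice in turn (0.0689 to 0.201) and in 4 of the other settings (0.0507 to 0.0697), and the fructose call in controls was lost when only the groups compared were fitted (0.13).

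*Med13l* stood at 195 to 275 normalized counts in the 8 fed libraries and at 264 to 409 in the 4 fasted ones, so that the ranges overlapped. The overlap came from the control mice, in which the fed libraries (232 to 275) and the fasted ones (264 and 276) differed little, whereas in the libraries labelled MED13-LKO the fed values (195 to 244) were all below the fasted ones (342 and 409). Averaged over genotypes and sugars, *Med13l* fell by 0.45 (SE 0.0912, adjusted p = 0.00663), with the call kept in 6 of 6 other settings and in 12 of 12 fits without a mouse. In the libraries labelled MED13-LKO it fell by 0.77 with sucrose (SE 0.149, adjusted p = 0.0165) and by 0.76 with fructose (SE 0.149, adjusted p = 0.0184), and in the controls it stood at -0.10 (adjusted p = 0.731) and -0.19 (adjusted p = 0.489). The calls for *Med13l* in the libraries labelled MED13-LKO were lost without the second fasted mouse (adjusted p = 0.128 with sucrose and 0.129 with fructose) and without the second mouse of the sugar concerned (0.145 and 0.144), and the fructose call when only the groups compared were fitted (0.0519).

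Whether the feeding change of *Med13l* differed between genotypes was tested by the interaction, and it was not called. The interaction, the change in the libraries labelled MED13-LKO minus that in controls, was -0.67 with sucrose (95% interval -1.14 to -0.21, unadjusted p = 0.00942, adjusted p = 0.413) and -0.57 with fructose (95% interval -1.04 to -0.10, unadjusted p = 0.0219, adjusted p = 0.456). A difference in the *Med13l* response between genotypes is therefore not shown by these libraries. Over all genes the interaction was called for 0.146% with sucrose and for 0.0243% with fructose, and limma called 0 of the 7 members in either. At an unadjusted p-value under 0.05 there were 2 members with sucrose, *Med13l* and *Cdk19*, and 1 with fructose, *Med13l*, where 8.53% and 9.46% of all genes stood under that limit.

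By group, limma called 1 of the 7 members in controls with sucrose (*Cdk8*, lower), where 8.57% of genes were called and 3.72% were called lower, and 1 in controls with fructose (again *Cdk8*, lower), where the shares were 5.6% and 2.81%. Among the libraries labelled MED13-LKO it called 2 members with sucrose (*Cdk8* and *Med13l*, both lower), where 5.71% of genes were called and 3.48% were called lower (39.1% of the calls were higher, and 50.7% with equal 75th percentiles), and 1 with fructose (*Med13l*, lower), where the shares were 6.53% and 3.58%. No member was called higher after feeding in any of these comparisons.

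The other 5 members were not called between fed and fasted livers. *Cdk19* had a log2 fold change of -0.41 (SE 0.162, adjusted p = 0.0968), close in size to that of *Cdk8* but with a spread between mice that was larger. Without the first fructose mouse labelled MED13-LKO, which leaves 1 library in that group, it was -0.54. The fructose change of *Cdk19* among the mice labelled MED13-LKO was then -1.26. Over the fits that left out a mouse these changes ran from -0.54 to -0.29 and from -1.26 to -0.28. *Med12* stood at -0.22 (adjusted p = 0.288), *Med13* at -0.16 (adjusted p = 0.367), *Ccnc* at 0.12 (adjusted p = 0.499) and *Med12l* at 0.39 (adjusted p = 0.675). *Med12* ran from -0.33, without the second fructose control, to -0.12 over the 12 fits that left out a mouse. Under the label MED13-LKO, *Ccnc* stood at 360 to 532 in the 4 fed mice and at 315 and 355 in the fasted ones. Its log2 fold changes of 0.39 for sucrose and 0.29 for fructose were not called (adjusted p = 0.277 and 0.40). *Med12* stood at 395 to 547 in the 4 fed mice and at 595 and 618 in the fasted ones. Its log2 fold changes of -0.405 for sucrose and -0.17 for fructose were not called either (adjusted p = 0.356 and 0.71).

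Among the cell type markers, the summed level over fed and fasted libraries overlapped for every list. Over all genes, 21.8% were called after feeding, 10.7% higher and 11.0% lower. For the hepatocyte list, most of it *Alb*, the sum was 1992809 to 2900651 in fed and 2378856 to 3331536 in fasted libraries. Of those genes 3 of 8 were called lower after feeding. For the Kupffer cell list the sum was 3978 to 6808 in fed and 5004 to 6561 in fasted libraries, with 0 of 8 called. For the endothelial list it was 4768 to 6108 and 5641 to 7457, with 2 of 8 called lower. The erythroid list stood at 5735 to 12282 in fed and 10098 to 14906 in fasted libraries, and 4 of its 5 genes tested, all encoding globin chains, were called lower after feeding (log2 fold changes -0.65 to -0.51). Of the stellate cell list (6345 to 7816 and 6799 to 7977) 1 of 8 was called higher and 1 lower, and of the 4 cholangiocyte and 2 lymphocyte markers tested 0 were called. Their part in the feeding differences of *Cdk8* and *Med13l* was not tested.

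**Figure D3:**
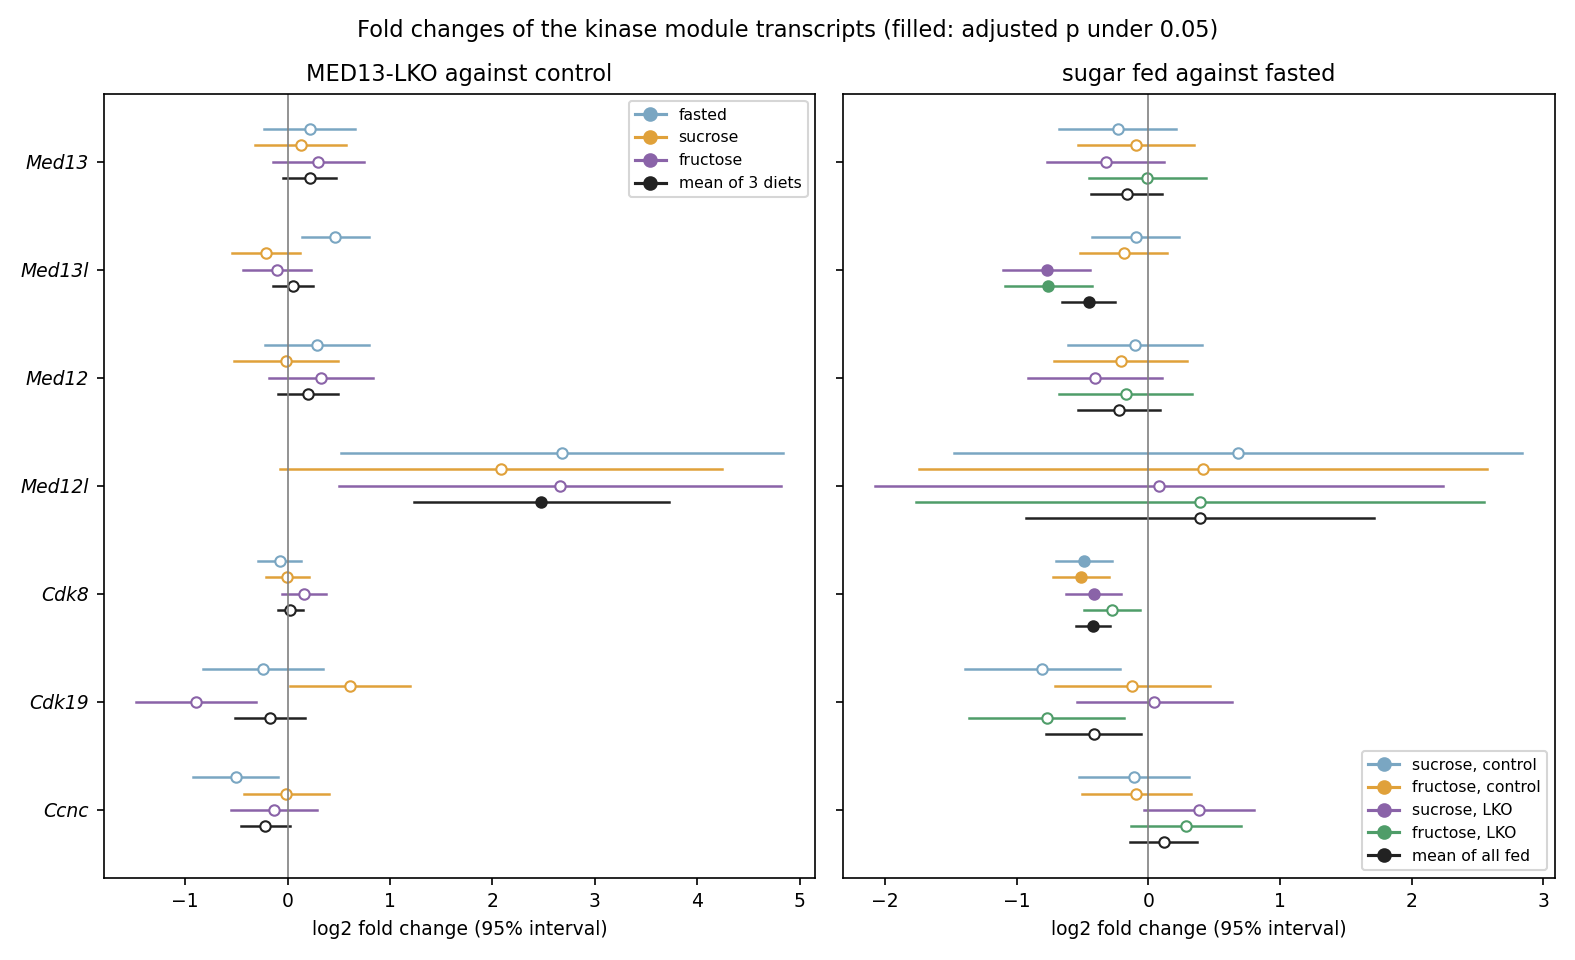
Log2 fold changes of the 7 genes with 95% intervals, left for MED13-LKO against control in each diet and averaged, right for sugar fed against fasted in each genotype and averaged, with filled points for an adjusted p-value under 0.05. Filled points are seen for *Med12l* on the left in the averaged comparison, and for *Cdk8* and *Med13l* on the right.

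The comparison of the sugars asks whether fructose and sucrose left different levels of the module RNA. Limma called 0 of the 7 members in either genotype, where 0.0404% of all genes were called in controls and 0.0404% in the libraries labelled MED13-LKO. At an unadjusted p-value under 0.05 there was 1 member in each, *Cdk19*, where 8.58% of all genes stood under that limit in controls and 7.69% in the libraries labelled MED13-LKO. In the controls *Cdk19* was higher with fructose (160 and 185) than with sucrose (103 and 110), a log2 fold change of 0.69 (95% interval 0.10 to 1.27, adjusted p = 0.505), and in the libraries labelled MED13-LKO it was lower with fructose (130 and 65.5) than with sucrose (174 and 154), a log2 fold change of -0.82 (95% interval -1.41 to -0.23, adjusted p = 0.472). The difference between those differences, a contrast added after the values were seen, was -1.50 (SE 0.373, unadjusted p = 0.0024, adjusted p = 0.45), in a comparison that called 0.105% of all genes and held 6.91% of them at an unadjusted p-value under 0.05. Over the 8 fits that left out a mouse it ran from -1.99, without the first fructose mouse labelled MED13-LKO, to -1.02. For *Cdk8* the sugars differed by -0.02 in controls with a 95% interval of -0.23 to 0.19, and for *Med13l* by 0.01 in the libraries labelled MED13-LKO with an interval of -0.32 to 0.34.

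The 26 subunits of core Mediator, to which the module binds, were all tested. After feeding 5 of 26 were called higher and 0 lower, where 10.7% of all genes were called higher and 11.0% lower, with a median log2 fold change over the list of 0.02, whereas for the 7 kinase module genes the median was -0.22 and for all genes -0.01. The 4 with the largest changes were *Med24* (0.60, SE 0.116, adjusted p = 0.00545), a subunit of the tail, *Med19* (0.38, adjusted p = 0.0427), *Med7* (0.31, adjusted p = 0.0407), a subunit of the middle, and *Med21* (0.25, adjusted p = 0.0441), also of the middle. Between genotypes 1 of 26 was called higher and 1 lower, where 25.3% of all genes were called and 12.1% were called higher. These were *Med30* (0.74, SE 0.104, adjusted p = 0.000828) and *Med1* (-0.22, SE 0.0621, adjusted p = 0.0248), the subunit that binds nuclear receptors. *Med30* stood at 51.7 to 90.1 normalized counts in controls and at 98.6 to 122 in the libraries labelled MED13-LKO, without overlap.

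**Figure D4:**
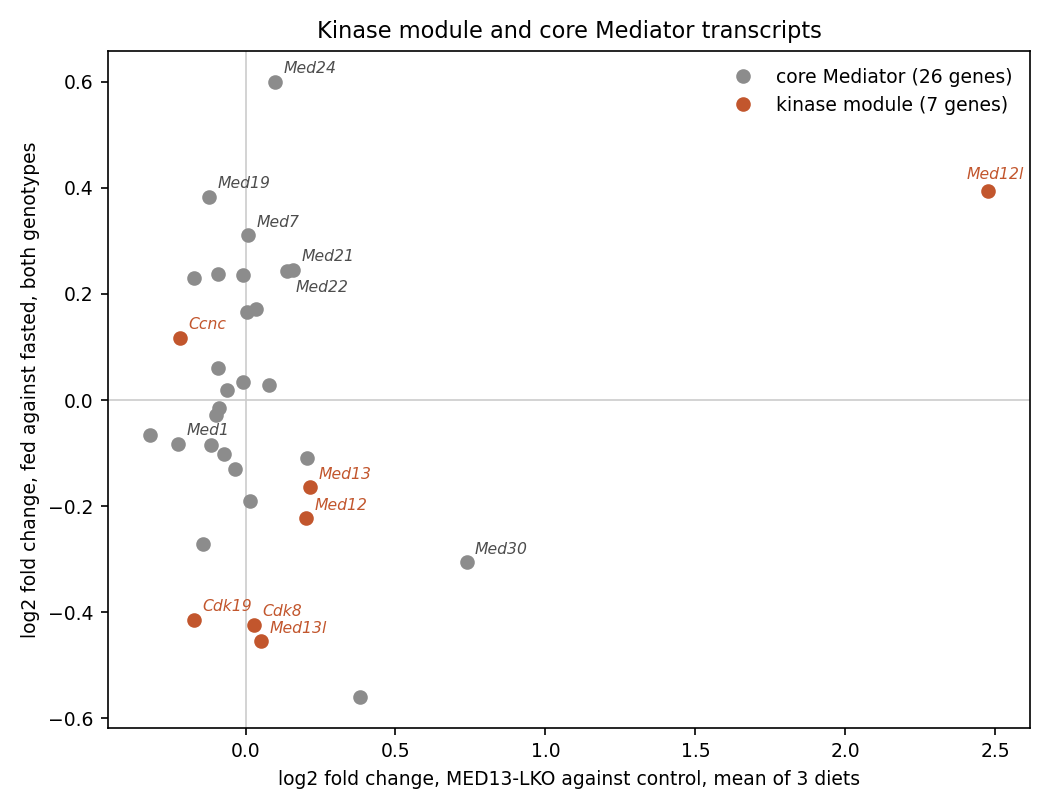
Log2 fold changes of 7 kinase module genes in orange and 26 core Mediator genes in grey, with MED13-LKO against control averaged over 3 diets on the horizontal axis and fed against fasted over both genotypes on the vertical axis, each point 1 gene. Named are all kinase module genes and those core genes called in either comparison. *Med12l* lies apart to the right at 2.48, and *Cdk8* and *Med13l* lie low at -0.42 and -0.45.

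Over all genes, 10.7% were called higher and 11.0% lower after feeding, and 25.3% were called between genotypes averaged over the diets. Of the other kinases and cyclins of transcription, 11 of 12 genes were tested. After feeding 0 were called higher and 2 lower, *Ccnl1* (-0.39, adjusted p = 0.0115) and *Ccnl2* (-0.38, adjusted p = 0.000526), the cyclins L that work with CDK11 in splicing. Between genotypes *Cdk12*, a kinase of the polymerase tail, was called higher (0.18, adjusted p = 0.0344) and *Ccnl2* lower (-0.20, adjusted p = 0.00949). Of 13 genes of the SCF-Fbxw7 ubiquitin ligase and of mTORC1 and its regulators, the latter a pathway that the study relates to the abundance of the module proteins, 0 were called higher after feeding and 2 lower, *Tsc1* (-0.61, SE 0.0674, adjusted p = 0.000296) and *Rictor* (-0.40, SE 0.0633, adjusted p = 0.00215). *Tsc1* encodes a subunit of the complex that restrains mTORC1, and *Rictor* encodes a subunit of mTORC2. Between genotypes 0 of the 13 were called higher and 1 lower, *Deptor* (-0.58, SE 0.051, adjusted p = 4.4e-05), which encodes an inhibitor of mTOR and stood at 4300 to 5261 in controls and at 2753 to 3650 in the libraries labelled MED13-LKO.

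Across the 12 libraries the members did not vary as 1 block. The correlations of log2 values, given as a description over libraries that share groups and a normalization, ran from a Pearson r of -0.67 between *Med13l* and *Ccnc* to 0.67 between *Med13l* and *Cdk8*. *Med13* and *Med12* had an r of 0.65 and a Spearman rho of 0.87, and *Cdk8* and *Ccnc*, which form a complex, had an r of -0.25. Among 8857 other genes with a mean of at least 100, the ones whose log2 values were most like those of *Cdk8* were *Slc7a2* (r = 0.97), a transporter of cationic amino acids, and *Mrps9* (0.95), a mitochondrial ribosomal protein gene. For *Med13* they were *Chm* (0.91) and *Irs1* (0.87), for *Med13l* *Ptprj* (0.92) and *Bcl10* (0.92), and for *Med12* *Snx18* (0.96) and *Jmjd1c* (0.93). For *Cdk19* they were *Nubp1* (0.91) and *Txnrd3* (0.90), for *Ccnc* *Ttc1* (0.90) and *Taf11* (0.89), and for *Med12l*, compared with 8858 genes, *Gtf2h2* (0.93) and *Cd2ap* (0.90).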

How the data were processed

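Liver RNA-seq libraries from 12 mice, 2 in each of 6 groups, were grouped by the sample titles. The authors trimmed reads with Trim Galore 0.6.5, estimated counts with Kallisto 0.46.0 and normalized them with DESeq2 1.24.0 (versions from the submitters' processing notes), and deposited the signal values as normalized counts for 16346 genes on mm10. The values are normalized estimates and were not recovered as whole reads, so no test on counts was run. Of the identifiers, 16212 matched a symbol of GENCODE M21 (GRCm38).

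From these, log2(value + 1) was fitted in limma 3.58.1 (R 4.3.3) with 6 group means and a mean-dependent prior, over 12366 genes with a mean of at least 10, with Benjamini-Hochberg adjustment. The added 1 shrinks the log2 fold change of *Med12l*, a low gene. Averaged over the diets, the *Med12l* change between genotypes ran from 1.66 to 2.64 over the 6 other settings. The fit was tested on simulated data. Tables and figures were made with Python 3.11.15, NumPy 2.4.6, pandas 2.3.3 and matplotlib 3.10.9.

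The members and lists were chosen with earlier results of these data known, and so support nothing beyond their counts. All 7 members were named in every comparison. Where 2 mice lay above or below 2 others, or 4 mice against 2, this describes the values only. The share of all genes that separate in that way is not given. Of each list the 4 called genes with the largest change were named, and as genes most like a member those with the highest r. Alternatives were pseudocounts, no filter, equal 75th percentiles, a prior without trend, a block for the replicate number, fits of only the groups compared and leaving out each mouse. Nothing says that equal replicate numbers mark littermates or shared handling. The limma p-values set a difference against the spread within groups of 2 mice, pooled over the groups fitted and drawn towards the prior. The qRT-PCR, protein and chromatin experiments were not analysed here.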

Additional observations from a re-analysis of the deposited data

Results flagged for a closer look

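Each mouse was measured once. Among the 7 members, 4 differences stood out. In each, both mice of one group lay above both of another, and the matching pair of groups had the reverse order. In none was the interaction called by limma with Benjamini-Hochberg adjustment. Over all genes tested, 19.3% showed such a pattern in at least 1 of the 3 interactions (8.85% for sucrose, 8.28% for fructose and 7.84% between the sugars), and 3 of the 7 members did. *Med13l* was higher in both fasted libraries labelled MED13-LKO than in both fasted controls and lower in both fructose libraries than in both fructose controls (interaction -0.57, adjusted p = 0.456). Its change from fasting to fructose had the same sign in both genotypes (-0.19 in controls and -0.76 in the libraries labelled MED13-LKO).

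*Cdk19* was lower in both fasted libraries labelled MED13-LKO and higher in both sucrose libraries than in the respective controls (interaction 0.85, adjusted p = 0.572). The sucrose libraries labelled MED13-LKO overlapped the fasted ones of that label. Between the sugars, *Cdk19* was higher in both fructose controls than in both sucrose controls. In the libraries labelled MED13-LKO both fructose values were below both sucrose ones (interaction -1.50, adjusted p = 0.45). Over the 8 fits that left out a mouse this interaction ran from -1.99 to -1.02. *Cdk8* in controls was slightly lower with fructose (701 and 694) than with sucrose (704 and 714), a log2 fold change of -0.02 (adjusted p = 0.97). Both fructose libraries labelled MED13-LKO were above both sucrose ones for *Cdk8* (interaction 0.16, adjusted p = 0.878).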

How the results depend on the processing

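The averaged calls of *Med12l* by genotype and of *Cdk8* and *Med13l* by feeding were made under every alternative run and without every mouse, and no result changed its direction among those called. The calls within a diet were less stable. When only the groups compared were fitted, 1 member was called between genotypes in the fasted state (*Med12l*), 0 for fructose in controls, and 1 for sucrose and 0 for fructose in the libraries labelled MED13-LKO. For sucrose in the libraries labelled MED13-LKO, equal 75th percentiles, a prior without trend and a block for the replicate number (replicate block) also left 1 call, *Med13l*, in place of 2. Leaving out 1 mouse gave 0 to 1 members called between genotypes with fructose, 1 to 3 averaged over diets, 0 to 1 in controls with sucrose, 0 to 1 in controls with fructose, 0 to 1 in the libraries labelled MED13-LKO with sucrose and 0 to 2 with fructose, and 2 to 3 between fed and fasted livers. The log2 ratio of *Med12l* to *Med12* differed by 1.69 to 2.86 without a mouse, and without the second fructose mouse labelled MED13-LKO it was 2.09 (exact permutation p = 0.0556). The cause of these changes was not tested.

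Over all genes, the number called moved with the setting. It ranged from 383 to 1112 between genotypes in the fasted state (1110 as reported), 148 to 775 with sucrose (746) and 163 to 1051 with fructose (951), from 2316 to 3252 averaged over diets (3127) and from 1555 to 2961 between fed and fasted livers (2691). Within groups it ranged from 328 to 1070 (1060) and 27 to 974 (692) in controls with sucrose and fructose, and from 145 to 764 (706) and 65 to 861 (807) in the libraries labelled MED13-LKO. It ranged from 0 to 71 (5) and 0 to 8 (5) between the sugars, and from 2 to 28 (18), 0 to 46 (3) and 2 to 36 (13) for the interactions. With equal 75th percentiles, the share of higher calls among the genes called between sucrose and fasted mice labelled MED13-LKO went from 39.1% to 50.7%.

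Deviations of same-numbered mice correlated at -0.14 to 0.08 between groups. No pairing by replicate number was seen there, but such correlations cannot show that equal numbers mark no shared handling. The replicate number as a block left 1 member called averaged over diets and 2 between fed and fasted livers. With the numbers of the fructose libraries labelled MED13-LKO crossed, an alternative chosen after the data were seen, 0 members were called between genotypes with fructose. With 2 mice in each group, *Med12l*, the lowest member, is the least precise.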
